A study of Mus musculus with 26 samples.

Results

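The 35 genes described here are the transcriptional machinery, targets and associated fetal-like repair genes of the Hippo pathway. They were chosen by name, with earlier results of these data known. They comprise 6 effectors (Yap1, Wwtr1, Tead1, Tead2, Tead3 and Tead4), 4 regulators (Lats2, Amotl1, Amotl2 and Ajuba), 7 target genes (Ankrd1, Ccn1, Ccn2, Crim1, F3, Axl and Nt5e), 3 ligands of the EGF receptor (Areg, Ereg and Hbegf) and 15 genes of the fetal-like repair state (Clu, Ly6a, Anxa1, Anxa2, Anxa3, Anxa5, Il1rn, Il33, Sprr1a, Spp1, Msln, Plaur, Tnfrsf12a, Cd44 and S100a6). All 35 were found among the 40481 genes of the mouse spheroid table and of the mouse crypt table, and 34 among the 55093 genes of the human Caco-2 table, which lists no LY6A. They were followed through 26 RNA sequencing libraries in which Fgfr1op, a gene for a centrosomal protein, had been deleted or silenced. The series title places the work in the question of how a centrosomal defect of intestinal stem cells bears on Crohn's disease.

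Small intestinal spheroids were wild-type (WT) or Fgfr1op knockout (KO), with 4 libraries per genotype, and both genotypes are labelled day 3 after hydroxytamoxifen. They grew in medium conditioned by L-WRN cells, which secrete Wnt3a, R-spondin 3 and Noggin, and deletion was induced with 250 nM Z-4-hydroxytamoxifen for 3 days. Crypt-enriched fractions, released from the small intestine with EDTA, were taken 6 or 9 days after tamoxifen from mice of both genotypes, with 6 libraries per genotype and 3 per genotype and day. Caco-2, a human colorectal carcinoma line, carried a doxycycline-inducible short hairpin RNA: shFgfr1op, which targets FGFR1OP, or the non-targeting scramble, with 3 libraries each at day 3 after doxycycline. One hairpin was used, so its effect and an effect of the sequence itself cannot be told apart. The driver of the Cre recombinase and the deleted stretch of Fgfr1op are not given in the labels. Crypt libraries are numbered 1 to 6 within a genotype; their day was not matched to them, so both days are pooled and no value within a day is given. The design names separate mice for spheroids and crypts; nothing says that the Caco-2 libraries came from separate cultures, so their p-values may measure technical spread.

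YAP (Yap1) and its paralog TAZ (Wwtr1) are coactivators that enter the nucleus when the Hippo kinase cascade is inactive and bind DNA through the TEAD factors. The kinases LATS1 and LATS2 phosphorylate them and so hold them in the cytoplasm, where angiomotin-like proteins also bind them. In the mouse intestine, YAP is known for its part in regeneration after injury, when the epithelium turns on genes of the fetal gut such as Ly6a (Sca-1), Clu and the annexins while markers of the resting stem cell decline. The same state is known from spheroids of fetal or regenerating epithelium.

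Promoters of 4 genes are shown as examples, and all 4 hold letters that were searched for. Ajuba, Plaur and Sprr1a were among the genes that rose in KO crypts, and Ccn1, a textbook YAP target, was not called there. Tnfrsf12a, S100a6, Cd44, Areg, Anxa5 and Tead2 also rose there, and their promoters held none of these letters. They are the 250 bases before the RefSeq start on mouse build GRCm38.p6, 5′ to 3′ on the gene's strand, with capitals marking the letters searched, and they were taken from chr14:54577662-54577911 (minus strand, Ajuba), chr3:145649986-145650235 (minus, Ccn1), chr7:24462233-24462482 (plus, Plaur) and chr3:92485882-92486131 (minus, Sprr1a). In Ajuba and Ccn1 the capitals are CATTCC, the reverse complement of the TEAD letters GGAATG; in Plaur and Sprr1a they are matches to TGANTCA, the AP-1 letters.
Ajuba: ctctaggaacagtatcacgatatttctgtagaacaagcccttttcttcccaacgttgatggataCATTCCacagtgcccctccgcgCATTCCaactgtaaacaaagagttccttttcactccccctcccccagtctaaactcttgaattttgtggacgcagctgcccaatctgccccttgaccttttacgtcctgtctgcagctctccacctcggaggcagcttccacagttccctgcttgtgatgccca
Ccn1: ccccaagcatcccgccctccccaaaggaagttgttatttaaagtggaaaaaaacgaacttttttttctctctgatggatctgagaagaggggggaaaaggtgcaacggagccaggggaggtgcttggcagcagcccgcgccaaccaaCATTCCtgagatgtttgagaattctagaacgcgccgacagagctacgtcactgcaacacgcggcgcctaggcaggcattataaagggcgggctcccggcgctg
Plaur: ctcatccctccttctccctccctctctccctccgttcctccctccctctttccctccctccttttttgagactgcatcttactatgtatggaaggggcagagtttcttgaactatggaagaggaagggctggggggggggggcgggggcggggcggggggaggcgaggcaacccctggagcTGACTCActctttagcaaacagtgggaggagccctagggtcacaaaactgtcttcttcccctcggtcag
Sprr1a: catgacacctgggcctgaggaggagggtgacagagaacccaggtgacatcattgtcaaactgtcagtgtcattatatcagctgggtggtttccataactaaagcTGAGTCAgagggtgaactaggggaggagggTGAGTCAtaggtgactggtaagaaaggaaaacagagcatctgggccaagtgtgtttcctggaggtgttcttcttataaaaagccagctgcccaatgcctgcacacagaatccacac
The matches begin 186 and 164 bases before the Ajuba start, 103 before the Ccn1 start, 69 before the Plaur start, and 146 and 116 before the Sprr1a start.

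RefSeq promoters spanning 250 bases before to 50 after the start were matched to 26 of the 35 genes; Ccn2, Tead1, Tead4, Ly6a, Clu, Anxa3, Msln, Hbegf and Ereg had no match. GGAATG on either strand stood in the promoters of 13 of these 26 genes (50.0%), against 4481 of 27025 genes (16.581%) overall. By role these were 3 of 4 effectors (Yap1, Wwtr1 and Tead3), 3 of 4 regulators (Lats2, Amotl2 and Ajuba), 4 of 6 targets (Ankrd1, Ccn1, Crim1 and Axl), 0 of 1 ligand and 3 of 11 fetal-like repair genes (Il1rn, Anxa1 and Il33). TGANTCA, which reads the same on both strands and in no single promoter accompanies GGAATG, stood in 5 of 26 genes (19.231%), against 2425 of 27025 (8.973%) overall. Those 5 were the target F3 and the repair genes Il1rn, Sprr1a, Plaur and Anxa2. Il1rn has 3 listed promoters, and the 2 matches lie in different ones. These matches describe letters and not binding, and the target genes are known in the field as genes under TEAD control.

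Library totals ran from 44152608 to 67630241 counts in spheroids, 48068740 to 103352863 in crypts and 37281821 to 50965004 in Caco-2. Fgfr1op itself was at 17.5, 19.8, 15.0 and 17.2 normalised counts (CPM, scaled to library size) in KO spheroids and 21.7 to 24.4 in WT spheroids (exact two-sided permutation p = 0.0286, the smallest that 4 against 4 libraries allow; edgeR adjusted p = 0.117). KO crypt libraries 1 to 6 held 11.7, 24.2, 18.7, 25.9, 24.1 and 21.8 CPM of it and WT crypts 25.2 to 39.0. The edgeR log2 fold change was -0.65 ± 0.19 SE (adjusted p = 0.0261), and the groups overlapped through KO library 4. Caco-2 cells with the hairpin held 6.82 ± 0.41 CPM (SD, n = 3) of FGFR1OP against 15.7 ± 0.21. By group mean, the gene was thus 25.1% lower in KO spheroids and 36.1% lower in KO crypts, with KO crypt library 1 the lowest. KO crypt libraries 4, 5 and 6 stood apart from the other 9 on the first principal component of all genes, which holds 55.96% of the variance: they scored 101.7, 124.3 and 106.7 and the others at most 5.158. Crypt calls below are therefore also given without these 3 libraries, a choice made after the data were seen. Each genotype has 3 libraries per day, and the day of these 3 was not matched to them. Leaving them out may therefore remove a whole day from KO and not from WT, which cannot be told apart here. Spheroid WT library 1 scored 46.65 on that table's first component, where the other libraries scored at most 15.09, and held Xist at 426 CPM, against at most 0.0922 in the other 7. Ddx3y, a gene of the Y chromosome, was at 0.0461 CPM in that library and 28.4 to 35.8 in the others. By these transcripts it alone was female, so sex was not balanced between genotypes in spheroids. In crypts, Xist was at 0.0544 CPM in KO library 6, 0.157 in WT library 6 and 49.2 to 120 in the rest.

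In crypts, genes of the fetal-like repair state and the EGF receptor ligands were higher in KO than in WT, most of all in KO libraries 4, 5 and 6. With edgeR's quasi-likelihood test and Benjamini-Hochberg adjustment over all genes, 20 of the 33 genes tested rose and 0 fell. Of all genes tested 24.5% were called, 14% higher and 10.5% lower. An unadjusted p below 0.05 was found for 26 of the 33, of which 6 were not called, and for 6259 of all 16413 genes tested. Ankrd1 and Ccn2 lay below the filter on low counts. The median log2 fold change was 2.02 over the 33 genes and 0.05 over all genes tested. In 9 of the 33, every KO library lay above every WT library, which 4.9% of all genes tested did, and in 0 of the 33 did every KO library lie below, which 5.71% did. The genes were chosen with earlier results of these data known, so setting these counts against all genes is not an independent test. These tissue samples are bulk RNA, in which more cells of a type and more RNA per cell cannot be told apart.

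Without KO libraries 4, 5 and 6, 8 of 33 genes rose in the remaining 3 KO libraries against the 6 WT libraries, where 5.46% of all genes tested were called, 2.72% higher and 2.74% lower. These 8 were Tnfrsf12a, Il1rn, Plaur, Ereg, Areg, Sprr1a, S100a6 and Cd44, and 0 fell. The median was then 0.75 over the 33 genes and 0.03 over all genes. The 12 genes no longer called were Wwtr1, Tead1, Tead2, Ajuba, F3, Hbegf, Clu, Ly6a, Anxa1, Anxa2, Anxa3 and Anxa5, of which Anxa1 had a negative value (-0.84).

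Of the 15 repair genes, 12 rose and 0 fell, with a median of 4.34. Tnfrsf12a, the receptor of the cytokine TWEAK, had the smallest p of this role. It stood at 52.4, 60.7, 75.3, 330, 326 and 220 CPM in KO libraries 1 to 6 and at 6.93 to 10.4 CPM in WT. All 6 KO libraries were above all WT libraries, and libraries 4, 5 and 6 were the highest (log2 fold change 4.34 ± 0.52 SE, adjusted p = 0.00118). Without those 3 libraries the change was 2.84 ± 0.18 (adjusted p = 3.19e-07). Il1rn, which encodes the antagonist of the interleukin-1 receptor, stood at 8.65, 6.99, 10.4, 288, 308 and 192 CPM in KO libraries 1 to 6 and at 0.50 to 1.35 CPM in WT. It too was higher in every KO library (7.34 ± 1.17, adjusted p = 0.00251; 3.38 ± 0.29 without the 3 libraries, adjusted p = 1.06e-05). Plaur, the urokinase receptor, whose promoter is shown above, stood at 13.2, 15.8, 13.7, 264, 338 and 217 CPM in KO and 2.00 to 3.62 in WT. Its groups did not overlap (5.70 ± 0.95, adjusted p = 0.00291; 2.37 ± 0.21 without the 3 libraries, adjusted p = 2.17e-05).

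Sprr1a, a cornified envelope protein, stood at 4.02, 1.68, 0.87, 139, 145 and 114 CPM in KO libraries 1 to 6 and at 0.07 to 0.71 CPM in WT. KO library 3 was only just above the highest WT library, and libraries 4, 5 and 6 were far above it (7.65 ± 1.45, adjusted p = 0.00489; 2.72 ± 0.58 without the 3, adjusted p = 0.0217). S100a6, a calcium-binding protein, stood at 107, 70.3, 101, 667, 782 and 617 CPM in KO and 19.6 to 60.9 in WT (3.61 ± 0.67, adjusted p = 0.0045; 1.54 ± 0.30 without the 3, adjusted p = 0.0158). Cd44, the hyaluronan receptor, stood at 69.1, 98.9, 92.5, 310, 325 and 226 CPM in KO and 19.3 to 59.2 in WT (2.20 ± 0.43, adjusted p = 0.0052; 1.10 ± 0.28 without the 3, adjusted p = 0.0408). The groups of S100a6 and of Cd44 did not overlap. Near-identical members of the Sprr and Ly6 families can split reads, so the levels of Sprr1a and Ly6a are uncertain in that respect.

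Ly6a (Sca-1), the standard surface marker of the fetal-like state, was spread widely in KO. It stood at 5.04, 17.0, 2.16, 804, 1311 and 1132 CPM in KO libraries 1 to 6 and at 1.80 to 4.63 CPM in WT. KO library 3 lay within the WT range, and KO libraries 4, 5 and 6 were over all others (7.50 ± 1.57, adjusted p = 0.00698; 1.42 ± 0.51 without them, adjusted p = 0.126). Clu, a secreted chaperone that marks the revival stem cell, stood at 6.33, 9.07, 10.0, 187, 439 and 229 CPM in KO and 1.96 to 10.9 in WT. The groups overlapped through WT library 4 (5.11 ± 1.14, adjusted p = 0.00924; 1.00 ± 0.47 without KO 4, 5 and 6, adjusted p = 0.23). The annexins, phospholipid-binding proteins, differed among themselves. Anxa1 stood at 1.85, 0.63, 0.79, 344, 617 and 373 CPM in KO and 0.43 to 6.41 in WT, so its call (6.81 ± 1.79, adjusted p = 0.0182) rests on 3 libraries (-0.84 ± 0.86 without them, adjusted p = 0.609). Anxa3 was at 9.68 to 322 CPM in KO and 4.15 to 9.46 in WT (4.41 ± 0.95; 0.75 ± 0.24 without the 3, adjusted p = 0.0802). Anxa5 was at 27.2 to 344 CPM in KO and 21.9 to 30.8 in WT (2.63 ± 0.65; 0.25 ± 0.17 without the 3, adjusted p = 0.411). Anxa2 had the smallest change of the 12, from 991 to 2254 CPM in WT to 2090 to 4674 in KO (1.12 ± 0.26, adjusted p = 0.00909; 0.59 ± 0.24 without the 3, adjusted p = 0.162). The alarmin Il33 (KO 6.03 to 50.0 CPM, WT 6.17 to 19.3), Spp1 or osteopontin (KO 0.06 to 11.7, WT 0.18 to 1.15) and mesothelin, Msln (KO 0.32 to 9.67, WT 0.51 to 12.5), overlapped between genotypes and were not called.

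**Figure D1:**
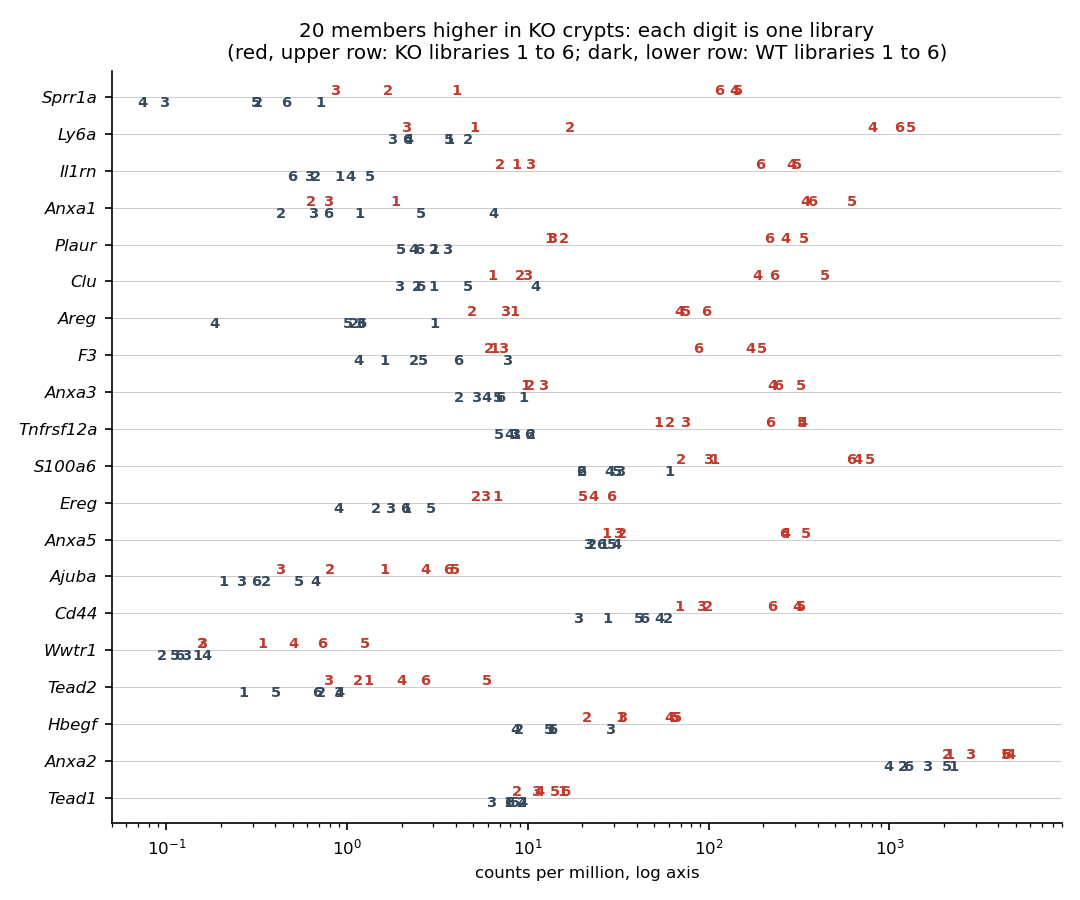
Normalised counts (CPM, log axis) of the 20 genes called in crypts, where each digit is a library (KO libraries 1 to 6 in red on the upper line, WT libraries 1 to 6 in dark on the lower line). KO libraries 4, 5 and 6 lie furthest right for the repair genes, and for Tnfrsf12a, Il1rn and Plaur KO libraries 1, 2 and 3 also lie above all WT libraries.

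All 3 EGF receptor ligands rose in KO crypts, with a median of 3.01. Ereg (epiregulin) stood at 6.81, 5.13, 5.89, 23.2, 20.1 and 29.0 CPM in KO libraries 1 to 6 and at 0.89 to 2.92 CPM in WT. Areg (amphiregulin) stood at 8.42, 4.90, 7.57, 69.2, 75.3 and 96.8 CPM in KO and 0.19 to 3.02 in WT. For both, every KO library was above every WT library: the change was 3.01 ± 0.48 for Ereg (adjusted p = 0.00218) and 5.08 ± 0.92 for Areg (adjusted p = 0.00405). Without KO libraries 4, 5 and 6 they were 1.68 ± 0.29 (adjusted p = 0.00546) and 2.44 ± 0.52 (adjusted p = 0.0233). Hbegf stood at 32.6, 21.3, 33.8, 60.4, 67.1 and 63.5 CPM in KO and 8.47 to 28.8 in WT, and WT library 3 lay within the KO range (1.69 ± 0.35, adjusted p = 0.00585; 1.02 ± 0.33 without the 3 libraries, adjusted p = 0.0829).

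Among the 6 effectors, 3 rose. Yap1 stood at 31.4, 21.8, 22.4, 28.1, 26.9 and 26.6 CPM in KO and 19.5 to 22.4 in WT, and it was not called (0.34 ± 0.12, adjusted p = 0.0546; 0.28 ± 0.17 without the 3 libraries). Wwtr1 stood at 0.34, 0.16, 0.16, 0.51, 1.26 and 0.73 CPM in KO and 0.09 to 0.17 in WT, so TAZ transcript was scarce in both genotypes (2.02 ± 0.50, adjusted p = 0.0121; 0.79 without the 3 libraries, adjusted p = 0.359). Tead1, the TEAD gene of highest CPM in crypts, stood at 8.74 to 16.1 CPM in KO and 6.33 to 9.34 in WT (0.65 ± 0.17, adjusted p = 0.0152; 0.53 ± 0.22 without the 3, adjusted p = 0.154). Tead2 stood at 0.79 to 5.92 CPM in KO and 0.27 to 0.91 in WT (1.83 ± 0.47, adjusted p = 0.0143; 0.75 ± 0.37 without the 3, adjusted p = 0.245). Tead3 and Tead4 were not called (0.69 ± 0.35 and 1.31 ± 0.56). Tead2 overlaps Cd37 on the opposite strand; the sources used here do not give whether counting used strand.

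Of the 4 regulators, Ajuba rose; it encodes a LIM protein that binds LATS kinases. It stood at 1.61, 0.80, 0.43, 2.70, 3.95 and 3.64 CPM in KO and 0.21 to 0.67 in WT, and KO library 3 lay within the WT range (2.49 ± 0.51, adjusted p = 0.00532; 1.30 ± 0.44 without the 3 libraries, adjusted p = 0.0943). Amotl1 was at 2.05 to 13.9 CPM in KO and 1.76 to 4.08 in WT (1.14 ± 0.43, adjusted p = 0.0695). Lats2 and Amotl2 stayed within 0.57 to 3.32 CPM in both genotypes and were not called. Of the 5 targets tested, F3 rose; it encodes tissue factor, the initiator of coagulation. F3 stood at 6.53, 6.12, 7.43, 170, 198 and 87.3 CPM in KO and 1.15 to 7.79 in WT (4.60 ± 1.03, adjusted p = 0.00938; 1.03 ± 0.47 without the 3 libraries, adjusted p = 0.209). The matricellular gene Ccn1 was at 0.81 to 1.93 CPM in KO and 0.28 to 1.23 in WT (0.79 ± 0.36, adjusted p = 0.116). Ccn2 had reads in KO libraries 5 and 6 only (0.12 and 0.07 CPM), and Ankrd1 stayed at or below 0.04 CPM everywhere. The receptor kinase Axl, the ectonucleotidase Nt5e and Crim1 were not called (1.66 ± 0.68, 0.62 ± 0.36 and -0.45 ± 0.23).

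Markers of other cell types moved with these values. In KO libraries 4, 5 and 6 the summed level of 5 stem cell markers was 37.6, 33.5 and 23.3 CPM, against 499 to 972 in KO libraries 1 to 3 and 865 to 2076 in WT. Olfm4, which forms most of that sum in the other 9 libraries, was at 8.37 to 22.4 CPM against at least 428 there. Over all 6 KO libraries 0 of the 5 stem cell markers were called. Ascl2 stood at 0.91 to 1.73 CPM in libraries 4, 5 and 6, within the WT range of 0.90 to 3.21. The 5 enterocyte markers summed to 1827 to 3180 CPM in libraries 4, 5 and 6, 6938 to 14860 in KO libraries 1 to 3 and 6808 to 15770 in WT. Of these 5, 1 was called lower and 0 higher in KO. The 5 general epithelial markers summed to 9229 to 10770 CPM in libraries 4, 5 and 6, 5111 to 5572 in KO libraries 1 to 3 and 3049 to 5152 in WT. Krt8, Krt18 and Cdh1 carried this difference, and 2 of the 5 were called higher in KO. Epcam was at 352 to 414 CPM in libraries 4, 5 and 6 and 332 to 507 in WT. Cdx2 was at 20.1 to 27.7 CPM in those 3 libraries and 24.7 to 36.9 in WT. The 10 immune markers summed to 388 to 837 CPM in libraries 4, 5 and 6, with none at 0. The sum was 1313 to 2138 in KO libraries 1 to 3 and 1974 to 5271 in WT. Cd74 formed most of the sum in WT and in KO libraries 1 to 3. It was at 139 to 687 CPM in libraries 4, 5 and 6 and at 1041 to 5007 in the other 9. Cd68 went the other way, at 4.26 to 10.1 CPM in libraries 4, 5 and 6 and 1.20 to 1.89 in the others. Of the 10 immune markers, 1 was called higher and 2 lower in KO. The 10 fibroblast and muscle markers summed to 2.65 to 54.9 CPM in KO, highest in library 5, and 4.63 to 44.0 in WT, highest in library 4, with up to 3 of 10 at 0; the 5 endothelial markers stayed at 1.35 to 4.12 CPM in all 12. The part of these shifts in the results was not tested.

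In spheroids edgeR called 0 of the 35 genes in either direction. It called 0.232% of all genes tested, 0.189% higher and 0.044% lower, so 0 of 35 does not set these genes apart. An unadjusted p below 0.05 was found for 16 of the 35 and for 2325 of all 15915 genes tested. DESeq2 called 7 higher and 1 lower, where it called 2.07% of all genes higher and 1.78% lower. The median log2 fold change was 0.25 over the 35 genes and -0.00175 over all genes, and 29 of 35 values were positive. In 6 genes every KO library was above every WT library, where 4.55% of all genes did so: Clu, Ly6a, Anxa3, Plaur, Tnfrsf12a and Cd44. In 2 genes, Tead3 and Tead4, every KO library was below every WT library, where 4.02% of all genes did so. The repair genes had the highest median by role (0.35), before regulators (0.18), targets (0.17), effectors (0.13) and ligands (0.08).

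Tnfrsf12a had the smallest p of the 35. It stood at 209, 220, 218 and 245 CPM in KO spheroids and at 147, 170, 163 and 184 in WT (0.43 ± 0.08 SE, edgeR adjusted p = 0.0749). Cd44 stood at 391, 400, 334 and 367 CPM in KO and 216, 305, 254 and 301 in WT (0.47 ± 0.11, adjusted p = 0.12). Ly6a stood at 1048, 1002, 1011 and 1051 CPM in KO and 566, 870, 671 and 908 in WT (0.45 ± 0.13, adjusted p = 0.18). KO libraries were close together for Ly6a and WT libraries were spread, with WT library 1 the lowest for all 3 genes. Without WT library 1 the values were 0.37 for Tnfrsf12a, 0.38 for Cd44 and 0.33 for Ly6a. Clu stood at 1710, 2019, 1472 and 1927 CPM in KO and 997, 1462, 1310 and 1423 in WT (0.46 ± 0.13, adjusted p = 0.173). Plaur, Anxa3 and Clu were likewise higher in all 4 KO libraries, by 0.26 to 0.46.

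Tead4, at 44.0, 49.9, 39.6 and 50.8 CPM in KO and 55.5, 64.9, 63.3 and 62.2 in WT, was the effector of smallest p (-0.42 ± 0.09, adjusted p = 0.0971). Tead2 had the opposite sign, at 38.1, 43.8, 30.3 and 54.3 CPM in KO and 23.8, 24.6, 32.0 and 27.2 in WT, with KO library 3 inside the WT range (0.63 ± 0.17, adjusted p = 0.147; called without KO library 3, adjusted p = 0.0425). Among regulators Ajuba had the smallest p (225, 271, 219 and 281 CPM in KO; 166, 200, 205 and 221 in WT; 0.33 ± 0.11, adjusted p = 0.213). Among targets it was Ccn1 (104, 104, 77.4 and 101 CPM in KO; 54.0, 88.0, 70.6 and 83.2 in WT; 0.38 ± 0.15, adjusted p = 0.295). Areg was the ligand of smallest p, at 369, 208, 412 and 309 CPM in KO and 239, 302, 285 and 303 in WT (0.20 ± 0.19, adjusted p = 0.655). Its KO libraries lay on both sides of the WT range. Stem cell markers summed to 227 to 270 CPM in KO and 268 to 298 in WT spheroids, and none of the 5 was called.

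The change with genotype differed between spheroids and crypts for 9 genes, all smaller in spheroids. Spheroids were taken 3 days after hydroxytamoxifen in culture, and crypts 6 or 9 days after tamoxifen from mice. System, time and route of induction therefore cannot be told apart. The difference was tested in one edgeR model over all 20 mouse libraries, as the spheroid KO effect minus the crypt KO effect, which uses the same libraries as the comparisons above. Of 35 genes 9 were called lower and 0 higher, where 2.86% of all genes tested were called, 1.76% lower and 1.1% higher. The values were -3.86 ± 0.61 for Tnfrsf12a (adjusted p = 0.00636), -6.99 ± 1.29 for Il1rn (0.0129), -5.39 ± 1.08 for Plaur (0.0189) and -2.88 ± 0.60 for Ereg (0.0206). Areg (-4.83, adjusted p = 0.0252), Sprr1a (-7.06, 0.0277), Ly6a (-7.00, 0.0382), S100a6 (-3.21, 0.0405) and Hbegf (-1.76, 0.0452) made up the rest. Leaving out single libraries changed these calls: Il1rn and Tnfrsf12a were called in all 20 such fits, Plaur in 19, Ereg in 18, Areg and Sprr1a in 13, Ly6a in 5, and Hbegf and S100a6 in 4. The number called lower was 2, 3, 4 and 4 without spheroid KO library 1, 2, 3 or 4, 4 without spheroid WT library 2, 3 or 4, and 17, 16 and 18 without crypt KO library 1, 2 or 3. Without KO crypt libraries 4, 5 and 6 together, Tnfrsf12a (-2.36, adjusted p = 1.75e-06), Il1rn (-3.03, 8.92e-06), Plaur (-2.06, 1.64e-05) and Ereg (-1.55, 0.0402) were called, 4 of 34, where 0.592% of all genes were called, 0.377% lower and 0.215% higher; Ccn2 then had 0 reads in every crypt library and no value. Ly6a was then at -0.93 (adjusted p = 0.519).

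**Figure D2:**
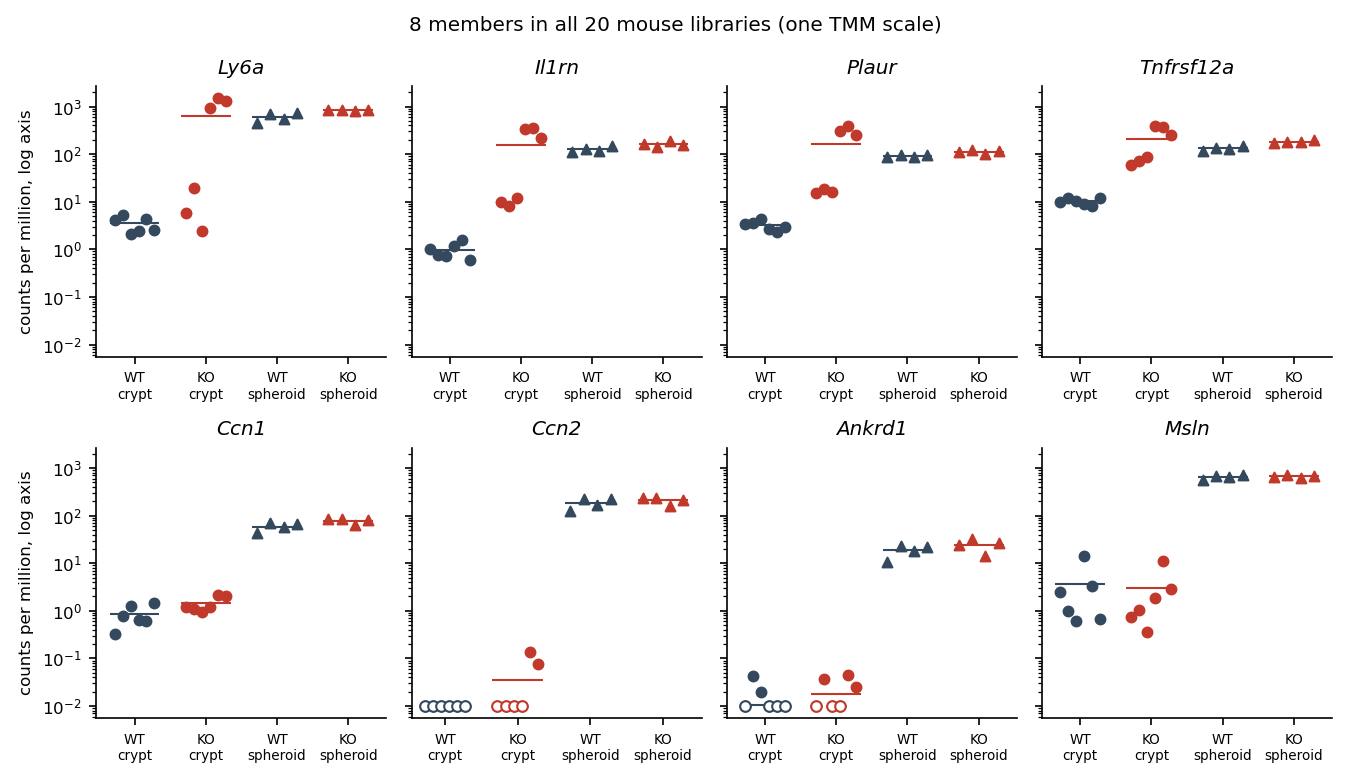
Normalised counts on 1 scale (CPM, log axis) of 8 genes in all 20 mouse libraries: circles are crypts, triangles spheroids, red KO, dark WT, short lines group means, and open circles 0 reads drawn at 0.01 CPM. For Ly6a, Il1rn, Plaur and Tnfrsf12a, KO crypt libraries 4, 5 and 6 lie above the spheroids, while Ccn1, Ccn2, Ankrd1 and Msln stay low in every crypt library.

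WT spheroids held far more of nearly all these transcripts than WT crypts. When the counts of both tables were normalised together, 34 of 35 genes were higher in WT spheroids and 1, Anxa2, was lower, where 83.8% of all genes tested were called, 41.3% higher and 42.4% lower. The median log2 difference was 5.39 over the 35 genes and -0.05 over all genes. In 32 of 35 every spheroid library was above every crypt library, which 37.1% of all genes were; Nt5e, Hbegf and Anxa2 overlapped. Culture, preparation and sequencing run differ together between the tables and cannot be told apart. Cell make-up differed too, with 9 of 10 immune and 5 of 5 enterocyte markers called lower in WT spheroids. Most WT spheroid libraries were low in Xist and most WT crypt libraries high. The part of these differences was not tested.

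The median difference was 6.24 over the 7 targets, 5.99 over the regulators, 5.39 over the repair genes, 4.46 over the effectors and 3.66 over the ligands. Targets differed among themselves, from Nt5e (1.02) and Crim1 (2.07) to Ccn2. Ccn2, a secreted matricellular protein and a much-used readout of YAP, stood at 123, 219, 169 and 222 CPM in WT spheroids and had 0 reads in all 6 WT crypt libraries. With 3 counts in the crypt library where 3 counts weigh most as the floor (0.0789 CPM), it was at least 2320-fold higher in spheroids, which is above the median of the targets. Ankrd1 stood at 10.7, 23.1, 18.1 and 22.4 CPM in WT spheroids and at most 0.04 in WT crypts. Ccn1 was at 42.3 to 69.6 CPM against 0.32 to 1.46 (6.24 ± 0.34, edgeR adjusted p = 2.03e-09). Among effectors, Wwtr1 was at 0.11 to 0.19 CPM in crypts and 43.4 to 60.0 in spheroids (8.57 ± 0.18, adjusted p = 1.94e-12), while Yap1 was at 23.0 to 25.3 CPM in crypts and 116 to 121 in spheroids (2.43 ± 0.08, adjusted p = 2.06e-11). TAZ transcript was thus scarce in WT crypts and plentiful in WT spheroids. Msln was at 573 to 720 CPM in WT spheroids and 0.60 to 14.1 in WT crypts (7.60 ± 0.89, adjusted p = 5.3e-06). Anxa2 was at 887 to 1358 CPM in spheroids and 1120 to 2563 in crypts (-0.59 ± 0.23, adjusted p = 0.0297), and this call was lost without spheroid WT library 1, 3 or 4 or crypt WT library 1 or 5 (adjusted p = 0.0775, 0.101, 0.0548, 0.0572 and 0.0593).

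Set per kilobase of exon, on the joint scale, the order of the genes changed between systems. In WT spheroids S100a6 was highest, at 1043 ± 101 CPM per kb (SD, n = 4), followed by Ly6a (498 ± 111), Clu (300.2 ± 50.9) and Anxa2 (298 ± 54.4), of which the last pair did not differ beyond their spread. In WT crypts Anxa2 was highest at 489 ± 159 (SD, n = 6), then S100a6 at 27.1 ± 12.5 and Anxa5 at 17.0 ± 2.13, and these last 2 overlapped. KO crypts had Anxa2 at 651 to 1458 CPM per kb, and Ly6a ranged from 2.05 to 1234 across the 6 KO libraries. Yap1 was at 12.8 ± 0.23 CPM per kb in WT spheroids, close to Wwtr1 at 10.8 ± 1.65, and at 2.60 ± 0.12 in WT crypts, where Wwtr1 was at 0.031 ± 0.0059. In KO libraries Yap1 and Wwtr1 were at 14.6 ± 1.08 and 12.1 ± 1.71 in spheroids and at 3.26 ± 0.45 and 0.13 ± 0.10 in crypts.

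**Figure D3:**
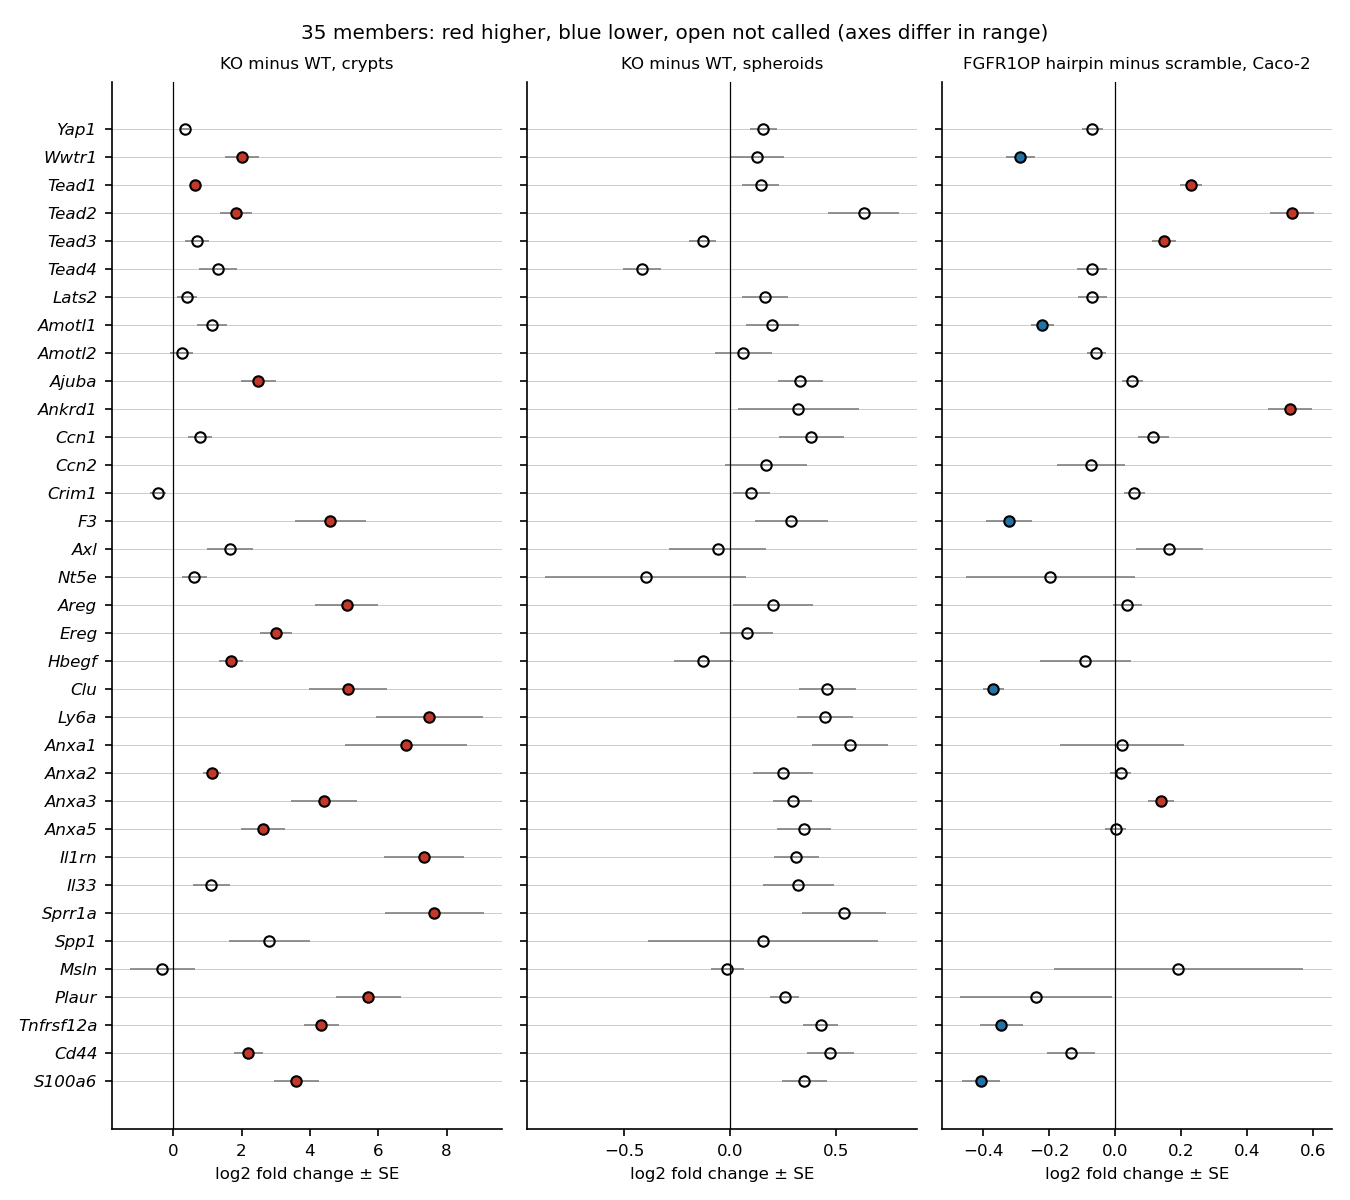
Log2 fold change ± SE of the 35 genes for KO against WT in crypts, KO against WT in spheroids, and hairpin against scramble in Caco-2 (red called higher, blue called lower, open not called, blank below the filter or absent; the axes differ in range). Crypt values reach 7.65 for Sprr1a, while the spheroid values lie between -0.42 and 0.63 and the Caco-2 values between -0.41 and 0.54.

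In Caco-2 cells the genes moved in both directions and by little. Of 29 genes tested 5 rose and 6 fell, where 15.7% of all genes tested were called higher and 16.2% lower. The median log2 fold change was -0.06 over the 29 genes and -0.00514 over all genes. In 5 genes the hairpin libraries were all above scramble and in 8 all below, where 20.8% and 21.5% of all genes were. EREG, IL1RN, IL33, SPRR1A and SPP1 lay below the filter; SPRR1A had 0 reads in all 6 libraries.

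Among effectors, 3 TEAD genes rose. TEAD2 stood at 26.7, 28.2 and 27.1 CPM with the hairpin and 19.8, 17.8 and 19.0 with scramble (0.54 ± 0.07 SE, edgeR adjusted p = 8.95e-09). TEAD1 stood at 182, 187 and 176 against 152, 155 and 156 CPM (0.23 ± 0.03, adjusted p = 4.68e-07), and TEAD3 at 131, 134 and 136 against 122, 119 and 120 (0.15 ± 0.04, adjusted p = 0.000998). WWTR1 fell, from 90.3, 89.4 and 91.4 CPM to 75.0, 68.5 and 78.4 (-0.29 ± 0.04, adjusted p = 7.05e-07). YAP1 was at 272, 263 and 264 CPM against 280, 278 and 280 and was not called (-0.07 ± 0.03, adjusted p = 0.0857), though its groups did not overlap. Of the regulators AMOTL1, a YAP-binding scaffold, fell from 171 to 182 CPM to 149 to 153 (-0.22 ± 0.03, adjusted p = 1.36e-06).

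Of the targets, ANKRD1, which encodes a nuclear ankyrin repeat protein, rose from 31.5, 33.9 and 29.3 CPM to 41.1, 51.0 and 44.8 (0.53 ± 0.07, adjusted p = 2.45e-07). F3 fell from 22.7, 23.4 and 21.9 CPM to 18.5, 19.2 and 16.8 (-0.32 ± 0.07, adjusted p = 0.000324). CCN1 and CCN2 were not called (0.12 ± 0.05 and -0.07 ± 0.10). Of the ligands, AREG had 83.1 to 96.0 CPM with the hairpin and 86.5 to 90.9 with scramble and was not called (0.04 ± 0.04, adjusted p = 0.584). Of 10 repair genes tested 3 fell and 1 rose. CLU fell from 313, 302 and 314 CPM to 239, 247 and 233 (-0.37 ± 0.03, adjusted p = 3.63e-13). TNFRSF12A fell from 32.1 to 33.5 CPM to 23.2 to 28.9 (-0.34 ± 0.07, adjusted p = 3.9e-05), and S100A6 from 47.3 to 54.4 CPM to 36.3 to 42.2 (-0.41 ± 0.06, adjusted p = 3.61e-07). ANXA3 rose (182, 196 and 170 against 170, 168 and 160 CPM; 0.14 ± 0.04, adjusted p = 0.00812); its groups overlapped, and the call was lost without hairpin library 2 (adjusted p = 0.0781) or scramble library 3 (0.0574). These 3 repair genes that fell in Caco-2 are 3 of the 12 that rose in KO crypts; species, culture and the means of depletion differ, and the difference was not tested. Stem cell markers summed to 129 to 135 CPM with the hairpin and 71.3 to 73.9 with scramble, the 4 tested all rose, and the intestinal factor CDX2 fell (-0.91); the part of this shift was not tested.

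**Figure D4:**
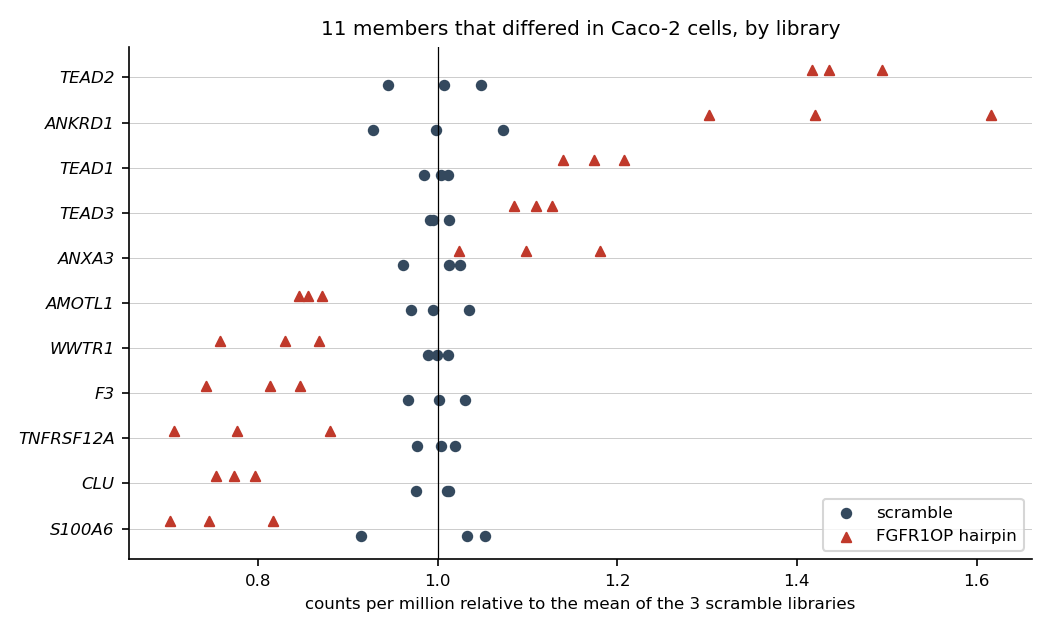
CPM of the 11 genes called in Caco-2, per library, relative to the mean of the 3 scramble libraries. TEAD2 and ANKRD1 lie highest with the hairpin and S100A6 and CLU lowest, and ANXA3 is the gene whose groups overlap.

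Other genes of the same pathways were examined on the same scale, where 24.5% of all genes tested in crypts were called and 5.46% without KO libraries 4, 5 and 6. Of 19 tested genes of the Hippo core and its adaptors 4 rose and 0 fell in KO crypts, among them Wwc1, which encodes the scaffold KIBRA (31.1 ± 11.0 against 13.8 ± 3.40 CPM, SD, n = 6; 1.18 ± 0.23, adjusted p = 0.00419) and the kinase gene Taok3 (0.81 ± 0.18, adjusted p = 0.00753). Without the 3 libraries Wwc1 was at 1.16 ± 0.28 (adjusted p = 0.0294), the 1 call among 20 such genes, and Taok3 at 0.35 (adjusted p = 0.154). Of 7 further YAP targets only Myof rose (1.75 ± 0.50, adjusted p = 0.0243; 0.13 without the 3 libraries, where 0 of 8 were called). Of 16 further fetal-state genes 7 rose and 0 fell, led by Ly6d (4.95 ± 1.11, adjusted p = 0.00938) and Cldn4 (2.61 ± 0.59, adjusted p = 0.00944). Ly6d and Cldn4 were highest in KO libraries 4, 5 and 6, and without these 0 of the 16 were called (Ly6d 1.70, adjusted p = 0.227; Cldn4 0.97, adjusted p = 0.139). Of 7 genes of the EGF family and its receptors, 2 ligands rose and 2 fell. Betacellulin, Btc, stood at 11.9, 13.3, 15.8, 251, 257 and 190 CPM in KO libraries 1 to 6 and 5.38 to 6.75 in WT, with every KO library above WT (4.29 ± 0.85, adjusted p = 0.00589; 1.12 ± 0.18 without the 3, adjusted p = 0.00419). Tgfa rose too (1.23 ± 0.29, adjusted p = 0.00951), while Egf and Nrg4 fell (-1.34 ± 0.37 and -1.20 ± 0.34, adjusted p = 0.0196 and 0.0224). Without the 3 libraries Btc was the only call of these 7, with Tgfa at 0.49, Egf at -1.01 and Nrg4 at -0.63. None of these 4 lists had a call in spheroids by edgeR. In Caco-2, where 31.9% of all genes tested were called, 8 of 22 Hippo genes rose and 5 fell, with AMOT at -0.78 ± 0.04 (adjusted p = 2.01e-19) and WWC1 at -0.27 ± 0.04 (adjusted p = 2.68e-08); WWC1 fell there and Wwc1 rose in KO crypts. Of 10 further targets 5 rose and 3 fell (MYOF -0.39, ASAP1 0.24), of 12 fetal-state genes 3 rose and 6 fell (CLDN4 -0.36, BASP1 -0.35), and of 5 EGF family genes 1 rose and 3 fell (ERBB2 -0.28, ERBB3 -0.61). Between WT spheroids and WT crypts, 18 of 20 Hippo genes, 9 of 10 further targets, 12 of 19 fetal-state genes and 4 of 7 EGF family genes were higher in spheroids, against 41.3% of all genes tested.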

How the data were processed

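RNA of 8 spheroid, 12 crypt and 6 Caco-2 libraries was sequenced. The authors deposited 3 tables of read counts per gene, per the file headers; STAR, DESeq2 and build mm10 are named in the submitters' processing notes, without versions, while the counter, the annotation, the use of strand and the human build of the Caco-2 table are not given in the sources used here. The organism field calls the Caco-2 libraries mouse, but their gene identifiers are human. Repeated identifiers, which carried identical counts, were removed (276 in each mouse table, 116 in Caco-2).

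Counts were filtered with filterByExpr, normalised by TMM and tested with edgeR 4.0.16 (quasi-likelihood, robust, R 4.3.3) over each whole table; genes with a Benjamini-Hochberg adjusted p below 0.05 were called, and rose or fell refers to these. SE is the log2 fold change divided by the root of F. CPM are counts scaled to the TMM-adjusted library size. Crypt columns name the genotype and a running number, so each entered as its genotype. The mouse tables hold the same 40481 identifiers and were joined for comparisons across them. Genes were placed and measured in exon length with the GENCODE annotation of GRCm38, in which 40254 of these identifiers were found. Promoters came from RefSeq on GRCm38.p6.

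The fit was tested on simulated counts. Alternatives were RLE scaling, other filters, DESeq2 1.42.0, voom with quality weights (limma 3.58.1), leaving out libraries, and a block on replicate number. Replicate numbers were not taken as pairs. No group held libraries that agreed within sampling noise (chi-square per degree of freedom at least 3.977). The members, the gene lists and the rule for named genes were chosen with earlier results of these data known. The rule gives all members, with the called ones and the one of smallest p per role in full, and from each further list up to 2 called genes of smallest p; Olfm4, Xist, CDX2, and Egf and Nrg4 were named after their values were seen. A 3-count floor stands for 0 reads. Of the 35 genes 16 overlap another gene in the annotation.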

Additional observations from a re-analysis of the deposited data

Results flagged for a closer look

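Of 136 groups of member values examined, 16 held a library that stood far from the rest of its group by Dixon's ratio; chance gives about 1 in 20. In spheroids these were Ccn1 in KO library 3 (77.4 CPM, others 101 to 104) and Axl in WT library 2 (30.2 CPM, others 16.8 to 17.5). KO crypt library 5 stood out for Tead2 (5.92 CPM), Axl (1.89) and Msln (9.67), and WT crypt library 4 for Clu (10.9), Anxa1 (6.41), Spp1 (1.15) and Msln (12.5). These 2 libraries also had the highest summed fibroblast and muscle markers of their genotypes (54.9 and 44.0 CPM); the part of that in the values was not tested. The others were Amotl2 (2.11) and Crim1 (21.7) in KO library 1, Nt5e in KO library 6 (31.9), Areg (3.02) and S100a6 (60.9) in WT library 1, Hbegf in WT library 3 (28.8) and Crim1 in WT library 5 (23.7).

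The effect of the knockout differed between spheroids and crypts in the test of the difference itself for 9 genes: Areg (-4.83), Ereg (-2.88), Hbegf (-1.76), Ly6a (-7.00), Il1rn (-6.99), Sprr1a (-7.06), Plaur (-5.39), Tnfrsf12a (-3.86) and S100a6 (-3.21), as log2 spheroid effect minus crypt effect. System, time since induction and route of induction differ together here and cannot be told apart.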

How the results depend on the processing

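In crypts the 20 genes that rose were all called again in each of the 12 fits that left out 1 library, and RLE scaling, DESeq2 and voom called all 20. Without a filter Anxa1 was lost (adjusted p = 0.0507), and at least 1 CPM left 16, since Wwtr1, Tead2, Ajuba and Sprr1a were then not tested. With the 3 KO crypt libraries that stood apart left out together, chosen after seeing the data, crypts gave 924 calls against 4014 and 8 members higher, and the difference between systems 110 calls against 528 and 4 members lower. Signs then turned in crypts for Tead4 (-0.15), Amotl1 (-0.0759), Axl (-0.0395), Anxa1 (-0.844), Il33 (-0.588) and Spp1 (-1.89), and in the difference for Amotl1 (0.322), Ccn1 (0.0605), Anxa1 (1.41), Anxa5 (0.149), Il33 (0.967) and Spp1 (2.04).

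Spheroid calls rested on the method: 37 by edgeR, 154 without a filter, 577 by DESeq2, 71 with the replicate block, and 3 (without WT library 3) to 160 (without KO library 3) with 1 library left out. Members higher were 2 without a filter (Tnfrsf12a, Cd44), 7 by DESeq2 (Tead2, Clu, Ly6a, Anxa1, Plaur, Tnfrsf12a, Cd44), 1 with the block (Tnfrsf12a, adjusted p = 0.0378) and 0 to 1 with a library left out; 1 was lower without a filter and 1 by DESeq2 (Tead4). With the block Caco-2 gave 5904 calls against 6031. In crypts a block on the running number in the column names, which the labels do not give and which was added after seeing the data, gave 2732 calls against 4014 and 12 members higher. Deviations of same-numbered KO and WT libraries correlated at -0.0295 to 0.0982 in spheroids, -0.0652 to 0.106 in crypts and 0.00332 to 0.0437 in Caco-2, and not every library correlated best with its own number. By voom, crypts gave 7179 calls with 1 member lower (Crim1), WT spheroids against WT crypts 0 members lower, and the difference 4723 calls with 1 member higher (Crim1) and 19 lower. With 1 library left out, crypt members lower were 0 to 1 (Crim1, without KO library 1), members lower in spheroids against crypts 0 to 1, calls in the difference 105 (without spheroid KO library 1) to 1419 (without crypt KO library 3), and its members higher 0 to 1 and lower 2 to 18. Fgfr1op in spheroids was then at -0.476 to -0.345 (exact permutation p = 0.0571 without any 1 WT library). The causes were not tested.

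Signs of uncalled members turned in spheroids for Axl (voom 0.00801) and Spp1 (block -0.044), in crypts for Amotl2 and Msln (voom -0.05 and 0.763), in Caco-2 for ANXA1 (voom -0.0127) and ANXA5 (no filter -0.000704), and in the difference for Amotl2, Ankrd1 and Msln (voom 0.18, -0.0121 and -0.79). With 1 library left out, ranges crossed 0 in spheroids for Amotl2 (-0.0451 to 0.163), Axl (-0.157 to 0.19), Ereg (-0.0533 to 0.172), Spp1 (-0.393 to 0.458) and Msln (-0.0666 to 0.0287); in crypts for Amotl2 (-0.127 to 0.372) and Msln (-1.44 to 0.863); in Caco-2 for CCN2 (-0.139 to 0.00152), AREG (-0.00227 to 0.103), HBEGF (-0.253 to 0.0332), ANXA1 (-0.0896 to 0.0838), ANXA2 (-0.0308 to 0.062), ANXA5 (-0.0137 to 0.0257) and MSLN (-0.058 to 0.323); and in the difference for Lats2 (-0.348 to 0.0577), Amotl2 (-0.304 to 0.268), Ankrd1 (-1.27 to 0.543) and Msln (-0.855 to 1.43). Between WT spheroids and WT crypts, other scalings moved the median of all genes from -0.05 to -0.30 without a filter and -0.386 by DESeq2. Depth limits Ankrd1, Ccn2 and Wwtr1 in crypts, where few reads stand behind each value.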
